A study of Danio rerio with 4 samples.

Results

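RNA of the heat shock, chaperonin and DnaJ genes was measured in whole zebrafish embryos at 6 somites, 12 h after fertilization. The genes were chosen by symbol from the deposited gene table: the HSP90, HSP70, small HSP and CCT families, the mitochondrial chaperonin, the DnaJ co-chaperones, heat shock factors, the collagen chaperone, BAG proteins and FKBP proline isomerases. These stems matched 105 of the 32538 rows. The match was by lower-case symbols, so 21 rows that carry capital symbols of the same stems, such as HSPH1 and HSPA4L, are not included. The mutants carried vgo, an allele of the T-box factor gene tbx1 that the labels call null, and the controls were wild type. The 2 libraries of each group held polyadenylated RNA from what was left of the embryo after the tail tip and a little yolk had been removed for genotyping. The labels do not say whether a library was a pool or whether the controls were siblings, so a p-value here reflects how these libraries varied, which may be technical.

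Molecular chaperones hold unfolded proteins in solution, fold them and hand them on. HSP70 binds short hydrophobic stretches under the control of J-domain proteins (DnaJ), which start its ATPase cycle, and of BAG proteins, which release the nucleotide. HSP90 finishes the folding of kinases and hormone receptors, and the CCT ring folds actin and tubulin. Under heat, Hsf1 switches on the cytosolic heat shock genes, whereas the unfolded protein response of the endoplasmic reticulum (ER) raises a separate set that includes hspa5 (BiP) and hsp90b1 (Grp94). In the zebrafish embryo hsp90aa1.1 is known for its role in assembling the myosin of early muscle, and hsp47 for collagen folding in the notochord and other matrix-producing tissues.

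The table gives FPKM, in which fragments are scaled to transcript length and library size, with the authors' 95% interval for each value. tbx1 itself had 4.91 and 4.52 FPKM in the mutants and 9.08 and 9.14 FPKM in the controls, with the mutants below the controls as labelled. From the most common ratio of the lowest values between libraries, the depth of mutant 1, mutant 2 and control 2 was estimated at 0.818, 0.722 and 0.841 of that of control 1. Only 7.8%, 10.6% and 17.0% of the genes compared had a ratio in the most common bin, so these depths are rough. The deposited intervals had a median half-width of 5.84% of the value for the chaperone genes, but 33.6% of the chaperone values lay outside their own interval, against 26.0% over all genes, so the intervals were not used as tests. A gene was tested where its mean was at least 1 FPKM and its estimate had the status OK in every library, which 13448 genes and 81 of the 105 chaperone genes met. Levels per length can be compared between genes in FPKM. In RNA of nearly whole embryos, fewer cells of a type and less RNA per cell cannot be told apart.

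The test called none of the chaperone genes different between the genotypes, which does not show that their levels were equal. None of the 81 passed an adjusted p of 0.05 in limma, where 9 of all genes tested (0.0669%) did. Nor did tbx1, whose log2 difference was -0.88 with an adjusted limma p of 0.227. A difference of that size can thus fail this test. Before adjustment 1 of the 81 had a limma p under 0.05, against 1.99% of all genes tested. That gene, hsp90aa1.2, was lower in the mutants, as were 0.907% of all genes, and 0 chaperone genes were higher at that threshold, where 1.08% of all genes were. Of the 81, 38 were higher and 43 lower in the mutants, with a median log2 difference of -0.0063, and over all genes the median was 0.017 with 57.2% higher. All 81 differences lay within 0.3 on the log2(FPKM + 0.5) scale, and 58 lay within 0.1, against 94.3% and 66.2% of all genes. The tested chaperone genes were also more abundant, with a mean log2 level in control 1 of 4.85 against 3.49 over all genes. Their deposited intervals had a median half-width of 5.84% against 8.99%. The part of level in the narrower range of differences was not tested. The mutant values lay above both controls for 9 chaperone genes and below both for 12, where 15.6% and 9.14% of all genes did so, 24.8% together. The adjusted limma p of every tested chaperone gene was 1.0, so the single genes below are given with their 95% intervals. With 2 libraries a side the smallest p an exact permutation test allows is 0.333, and the p-values therefore rest on the spread that limma pools across genes.

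**Figure D1:**
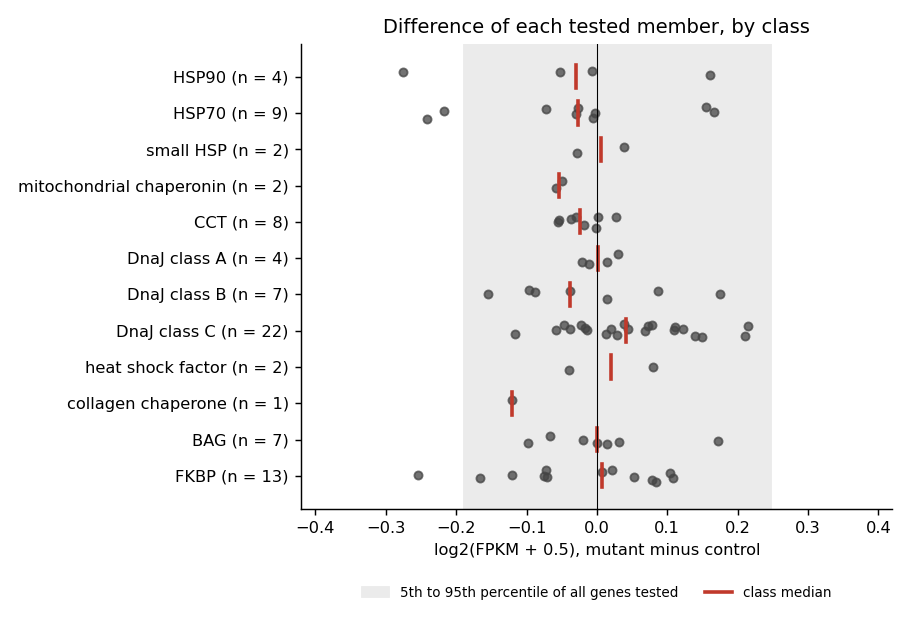
Difference between mutants and controls for each of the 81 tested chaperone genes (points), by class, on the log2(FPKM + 0.5) scale, with the median of each class (red bar). The grey band spans the 5th to 95th percentile of all genes tested, from -0.19 to 0.25; every class median lies within 0.13 of 0 and only 4 points lie outside the band.

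The embryo held these RNAs at levels that span more than 3 orders of magnitude. Among the tested genes, 3 averaged at least 1000 FPKM, 15 lay between 100 and 1000, 37 between 10 and 100, and 26 between 1 and 10. The 3 most abundant were the small HSP gene hspb1, the constitutive HSP70 gene hspa8 and the constitutive HSP90 gene hsp90ab1. They held 52.1% and 53.9% of the summed FPKM of the tested chaperone genes in the mutants, and 52.8% and 53.7% in the controls. Of the 12 values of these 3 genes, 0 lay inside their own interval, so the shares are uncertain. The 24 genes that were not tested were 23 with a mean under 1 FPKM and a second row of fkbp1b whose status was not OK in every library.

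**Figure D2:**
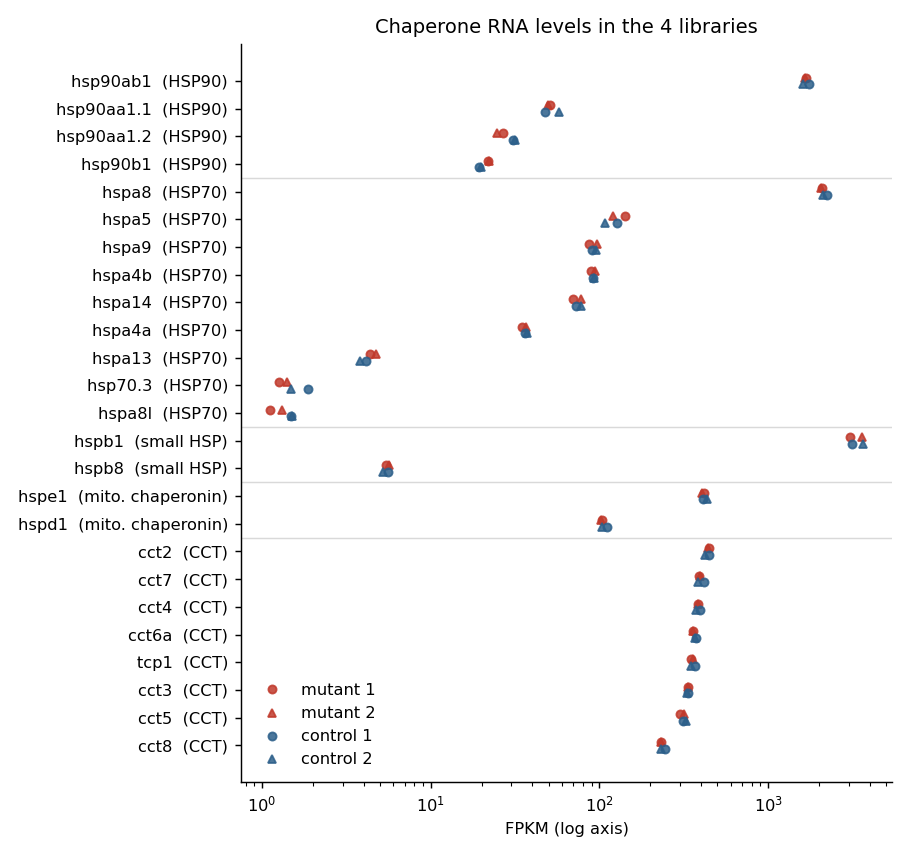
FPKM of the tested HSP90, HSP70, small HSP, mitochondrial chaperonin and CCT genes in the 4 libraries (log axis; red, mutants; blue, controls; circles and triangles, libraries numbered 1 and 2). The constitutive genes hspa8 and hsp90ab1 and the small HSP gene hspb1 stand above 1000 FPKM in every library, the 8 CCT genes form a narrow column, and the inducible hsp70.3 is near 1 FPKM.

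HSP90 was represented by 4 genes. hsp90ab1 (ENSDARG00000029150), the constitutive cytosolic form, had 1685 and 1651 FPKM in the mutants and 1751 and 1604 FPKM in the controls. The mutant values lay between the control values, and the log2 difference was -0.0072 with a 95% interval from -0.23 to 0.22. hsp90aa1.1 (ENSDARG00000010478), the form of early muscle, had 51.1 and 49.4 FPKM in the mutants and 47.5 and 57.2 FPKM in the controls, and the groups overlapped. Control 2 was the high library for hsp90aa1.1 and also for the muscle genes acta1a (74.3 and 74.7 FPKM in the mutants, 72.75 and 84.3 in the controls) and myf5 (28.3 and 34.1 FPKM in the mutants, 29.2 and 41.9 in the controls). The summed level of the 5 tested muscle markers was 119 and 124 FPKM in the mutants and 119 and 139 FPKM in the controls, with mylpfa and tnnt3a under 1 FPKM. Among the other tested markers control 2 was the lowest library for myog and smyhc1, and for myod1 it lay between the others. acta1a made up most of the sum. The part of the muscle in the hsp90aa1.1 values was not tested.

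hsp90aa1.2 (ENSDARG00000024746), the neighbouring copy, had 26.7 and 24.7 FPKM in the mutants and 30.6 and 31.7 FPKM in the controls. Both mutants lay below both controls. The means were 25.7 ± 1.43 FPKM in the mutants and 31.2 ± 0.727 FPKM in the controls (SD, n = 2 each). The log2 difference was -0.28 (SE 0.0758, 95% interval -0.47 to -0.08), with a limma p of 0.0169 before adjustment which did not hold after adjustment. Without mutant 1 the difference was -0.33 with a limma p of 0.0362 before adjustment, and without mutant 2 it was -0.22 with 0.106. Without control 1 it was -0.30 with a limma p of 0.0494 before adjustment, and without control 2 it was -0.25 with 0.0750. In each of these fits the lone library is assumed to vary like the other group. The copies lie 697 bp apart on chromosome 20 of Zv9, hsp90aa1.2 from 54322746 to 54336769 and hsp90aa1.1 from 54337467 to 54351275. They are close in sequence, and all 8 deposited values of the pair lay below their own intervals, so how reads were divided between them is uncertain. hsp90aa1.1 stood 1.92 and 2.004 times above hsp90aa1.2 in the mutants, and 1.55 and 1.81 times above it in the controls.

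The ER form hsp90b1 (ENSDARG00000003570), which folds integrins and Toll-like receptors, had 21.8 and 22.2 FPKM in the mutants and 19.3 and 19.9 FPKM in the controls. Both mutants lay above both controls. This difference of 0.16 (SE 0.0692, 95% interval -0.02 to 0.34) had the second lowest limma p of the chaperone genes, 0.0712 before adjustment. Within the HSP90 family 3 of 4 members were lower and 1 was higher, and no member passed over all genes.

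The HSP70 family had 9 tested members of 13, of which 7 were lower in the mutants (median -0.027). hspa8 (ENSDARG00000068992), the constitutive cytosolic HSP70, had 2085 and 2056 FPKM in the mutants and 2233 and 2121 FPKM in the controls, with both mutants below both controls by a small margin. Its log2 difference was -0.07 (SE 0.0802, 95% interval -0.28 to 0.14), smaller than its SE. Its locus overlaps 3 SNORD14 rows, and 0 of its 4 values lay inside their own interval. hspa5 (ENSDARG00000004665), the HSP70 of the ER known as BiP, had 141 and 120 FPKM in the mutants and 127 and 108 FPKM in the controls. The groups overlapped, and in each genotype the library numbered 1 was higher than that numbered 2. The difference between genotypes was 0.16 (SE 0.123, 95% interval -0.17 to 0.48). All 4 hspa5 values lay below their own interval, as in mutant 1, where the bounds were 167 and 174 FPKM. hspa13, a further ER-associated HSP70, had 4.34 and 4.71 FPKM in the mutants and 4.13 and 3.83 FPKM in the controls, without overlap (log2 difference 0.17, 95% interval -0.11 to 0.45).

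The mitochondrial HSP70 gene hspa9 had 87.3 and 96.9 FPKM in the mutants and 89.97 and 94.8 FPKM in the controls, a difference of -0.0063. The nucleotide exchange factors of the HSP110 group, hspa4b and hspa4a, averaged 91.6 ± 3.71 and 35.8 ± 1.42 FPKM in the mutants and 91.8 ± 1.13 and 36.5 ± 0.812 FPKM in the controls (SD, n = 2 each). hspa14, a ribosome-associated HSP70, stood at 73.9 ± 5.31 FPKM in the mutants and 75.2 ± 3.36 FPKM in the controls (SD, n = 2 each). The groups overlapped for each of these 4.

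The heat-inducible HSP70 genes were close to silent in every library. hsp70.3 was the only one with a mean above 1 FPKM. It had 1.26 and 1.40 FPKM in the mutants and 1.86 and 1.48 FPKM in the controls, without overlap (log2 difference -0.24, SE 0.165, 95% interval -0.67 to 0.19). hsp70l, the form most used as a marker of heat shock in zebrafish, was not tested, at 0.458 and 0.361 FPKM in the mutants and 0.987 and 0.463 FPKM in the controls, with control 1 alone standing apart. hsp70.2 had 0.200 and 0.163 FPKM in the mutants and 0.514 and 0.268 FPKM in the controls, and hsp70.1 had at most 0.161 FPKM. The loci of hsp70.1 and hsp70.2 overlap each other, and both, like that of hsp70.3, overlap the locus of the muscle calcium pump gene atp2a1, so their reads cannot be assigned with certainty. hspa8l had 1.12 and 1.31 FPKM in the mutants and 1.486 and 1.499 FPKM in the controls (log2 difference -0.22, 95% interval -0.62 to 0.18).

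Of the 10 small HSP genes only hspb1 and hspb8 reached 1 FPKM. hspb1 (ENSDARG00000041065), which encodes Hsp27, a chaperone that binds unfolding proteins and actin, was the most abundant chaperone RNA and ranked 62 of the 13448 genes tested. It had 3059 and 3617 FPKM in the mutants and 3158 and 3642 FPKM in the controls. In each genotype the library numbered 2 was higher, and the difference between genotypes of -0.03 (95% interval -0.38 to 0.32) was far smaller than that between library numbers, 0.22. hspb8, a partner of Bag3 in selective autophagy, had 5.40 and 5.69 FPKM in the mutants and 5.55 and 5.22 FPKM in the controls. The other 8 small HSP genes, including hspb2, hspb3 and hspb7, which mammals use in muscle and heart, lay under 0.6 FPKM in every library. No small HSP gene was called by the test.

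The mitochondrial chaperonin is built from Hsp60 rings, encoded by hspd1, and the Hsp10 lid, encoded by hspe1. The loci lie 232 bp apart on chromosome 9 of Zv9, hspd1 from 33319912 to 33334091 and hspe1 from 33334324 to 33338315. hspe1 had 414 and 404 FPKM in the mutants and 411 and 435 FPKM in the controls. hspd1 had 103 and 102 FPKM in the mutants and 111 and 104 FPKM in the controls, the mutants being just below both controls. The ratio of the means of lid to ring RNA was 3.97 in the mutants and 3.95 in the controls. The differences, -0.05 for hspe1 and -0.06 for hspd1, were smaller than their SEs of 0.0693 and 0.0674.

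The CCT genes, whose 8 products each take a fixed place in the ring, were expressed within a narrow range. The subunits averaged 439 FPKM for cct2, 397 for cct7, 383 for cct4, 365 for cct6a, 356 for tcp1, 333 for cct3, 314 for cct5 and 235 for cct8. The most abundant subunit stood 1.94 and 1.89 times above the least abundant in the mutants, and 1.84 and 1.82 times in the controls, and the spread between libraries was smaller than that. The libraries of cct7, cct4, cct6a and tcp1 overlapped from each gene to the next, whereas those of cct2 lay above them and those of cct3, cct5 and cct8 followed below without overlap. Of the CCT values 62.5% lay outside their own interval, with 0 of 4 inside for each of cct2, cct4, cct6a and tcp1. The order of the subunits is therefore uncertain. Averaged over the subunits, the level was 350 and 352 FPKM in the mutants and 362 and 348 FPKM in the controls. All 8 differences lay between -0.05 and 0.03, which were the values of cct6a and cct2. cct6a was the only subunit whose groups did not overlap, at 358 and 359 FPKM in the mutants and 375 and 370 FPKM in the controls (log2 difference -0.05, SE 0.0623, 95% interval -0.22 to 0.11). That is 12.5% of the CCT genes, where the groups did not overlap for 24.8% of all genes. The direction of cct3 and tcp1 turned under quantile normalization, and that of cct4 under median-ratio rescaling, which moved the median of all genes from 0.017 to -0.0017. Leaving out 1 library turned the direction of cct2, cct3, cct4, cct7 and tcp1. The median over the CCT genes was -0.023.

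The DnaJ genes had 33 tested members. In class A, the general partners of cytosolic HSP70, dnaja2 led with 191 and 215 FPKM in the mutants and 191 and 211 FPKM in the controls, and dnaja2l stood at 53.3 and 61.3 FPKM in the mutants and 51.9 and 60.4 FPKM in the controls. dnaja1l averaged 30.8 FPKM and the mitochondrial dnaja3a 20.6 FPKM. The 4 differences of class A lay between -0.02 and 0.03, within the spread between libraries. In class B, dnajb1b (ENSDARG00000041394), the Hsp40 that works with HSP70 under heat stress, had 58.3 and 67.8 FPKM in the mutants and 66.9 and 73.3 FPKM in the controls. The groups overlapped, and its difference was -0.15 (SE 0.102, 95% interval -0.42 to 0.11). dnajb11, the ER partner of BiP, had 26.9 and 30.6 FPKM in the mutants and 23.5 and 27.4 FPKM in the controls, again with overlap (0.17, SE 0.114, 95% interval -0.12 to 0.47). For both genes the library numbered 2 was the higher one in each genotype. dnajb12a, of the ER membrane, averaged 25.5 FPKM with a difference of 0.09.

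Class C, the most diverse DnaJ class, had 22 tested members, 15 of them higher in the mutants (median 0.041). For 6 of the 22 (27.3%) both mutants lay above both controls and for 0 both lay below, where 15.6% and 9.14% of all genes did so. The most abundant members differed little between genotypes. The splicing-associated dnajc8 averaged 105 ± 2.36 FPKM in the mutants and 102 ± 3.24 FPKM in the controls (SD, n = 2 each). The histone chaperone gene dnajc9 averaged 62.9 ± 2.77 FPKM in the mutants and 65.0 ± 5.03 FPKM in the controls, and the ribosome-associated dnajc2 44.6 ± 0.259 FPKM in the mutants and 45.1 ± 3.08 FPKM in the controls (SD, n = 2 each). The non-overlapping genes were of lower level. Among them were 3 of the 4 tested dnajc5 genes, which encode cysteine string proteins of secretory and synaptic vesicles. dnajc5ga had 9.83 and 9.502 FPKM in the mutants and 8.76 and 8.58 FPKM in the controls (0.15, SE 0.0795, 95% interval -0.06 to 0.36). dnajc5aa had 3.09 and 3.87 FPKM in the mutants and 2.84 and 3.01 FPKM in the controls (0.21, SE 0.142, 95% interval -0.16 to 0.58). dnajc5gb was at 0.07 and dnajc5ab, whose groups overlapped, at 0.11. The other non-overlapping members were dnajc4 (0.22), dnajc3 (0.14) and dnajc10 (0.03). For dnajc5gb and dnajc10, 0 of 4 values lay inside their own interval. The dnajc5 genes were grouped after the values had been seen. None of these differences passed the test.

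Among the regulators, hsf1, the master activator of the heat shock response, had 13.2 and 14.3 FPKM in the mutants and 13.9 and 12.2 FPKM in the controls. hsf2, active in development and in gametes, had 21.0 and 25.9 FPKM in the mutants and 21.3 and 27.1 FPKM in the controls, and differed mainly by library number. hsf4 and hsf5 were under 0.11 FPKM. Of the 7 BAG genes, bag6, which shields tail-anchored proteins on their way to the ER, was the most abundant at 31.4 and 30.9 FPKM in the mutants and 33.8 and 31.6 FPKM in the controls, without overlap. bag1 had 19.4 and 24.2 FPKM in the mutants and 17.997 and 25.0 FPKM in the controls, with the library numbered 2 higher in each genotype. bag4 had 11.7 and 10.6 FPKM in the mutants and 11.9 and 10.8 FPKM in the controls. bag5, an inhibitor of HSP70 cycling and of the ligase Parkin in mammals, did not overlap, with 5.19 and 5.25 FPKM in the mutants and 4.52 and 4.64 FPKM in the controls (0.17, SE 0.0918, 95% interval -0.07 to 0.41).

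FKBP genes encode proline isomerases, and 13 of 16 were tested, with 7 higher, 6 lower and a median of 0.0076. For 4 of the 13 (30.8%) both mutants lay below both controls and for 0 both lay above, where 9.14% and 15.6% of all genes did so. fkbp1aa, the small cytosolic FKBP12, had 749 and 723 FPKM in the mutants and 773 and 778 FPKM in the controls, without overlap (-0.08, SE 0.0683, 95% interval -0.25 to 0.10). Its paralog fkbp1ab was far less abundant, so that the ratio of the means was 131 in the mutants and 148 in the controls. fkbp3, a nuclear form, had 186 and 157 FPKM in the mutants and 187 and 173 FPKM in the controls. fkbp9, an ER form, had 111 and 93.0 FPKM in the mutants and 106 and 87.2 FPKM in the controls. fkbp8, of the mitochondrial outer membrane, had 11.2 and 11.1 FPKM in the mutants and 12.4 and 11.9 FPKM in the controls (-0.12, 95% interval -0.32 to 0.08). fkbp1b had 1.58 and 1.41 FPKM in the mutants and 1.89 and 1.86 FPKM in the controls (-0.25, 95% interval -0.62 to 0.11), and its locus overlaps the second fkbp1b row. hsp47, the collagen chaperone of the ER, had 77.7 and 76.5 FPKM in the mutants and 81.8 and 85.9 FPKM in the controls, without overlap (-0.12, SE 0.0648, 95% interval -0.29 to 0.05).

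Arranged by compartment and by heat response, the members of the ER had a median above 0 and the heat-inducible members a median below 0. hsp47 belongs to both groups. These groupings, and the members named in them beside the rule, were set after the values had been seen, so their counts describe the data and test nothing. Of 14 tested members with a site in the ER lumen, 12 were higher in the mutants, with a median log2 difference of 0.081, against 57.2% higher and a median of 0.017 over all genes. The 4 with the largest differences were dnajb11, hspa13, hsp90b1 and hspa5, followed by dnajc3, a BiP co-chaperone that inhibits the kinase Perk, at 0.14. fkbp11, an isomerase of secretory cells, had 92.5 and 80.1 FPKM in the mutants and 81.7 and 78.0 FPKM in the controls (0.11). hsp47 and fkbp7 were the exceptions, at -0.12 and -0.07. The summed level of the 14 was 713 and 655 FPKM in the mutants and 670 and 646 FPKM in the controls, and these sums overlapped. Without mutant 1, 9 of the 14 were higher and the median was 0.012, so the size of the median depended on mutant 1. After median-ratio rescaling 11 were higher, with a median of 0.062.

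Of 8 tested members picked by hand as induced by heat in vertebrates, 8 were lower in the mutants, with a median of -0.11. Over all genes 42.8% were lower. The other members, such as hspb8 (0.04), were not sorted by heat response, so the count depends on which were picked. Of the 60 tested members outside the ER and heat-inducible groups, 26 were higher and 34 lower. The 8 were hsp90aa1.2, hsp70.3, dnajb1b, hsp47, bag3 (-0.10), dnajb1a (-0.09), hsp90aa1.1 and hspb1. For 3 of them, hsp90aa1.2, hsp70.3 and hsp47, both mutants lay below both controls, as for 9.14% of all genes. The median was -0.063 without mutant 1, -0.18 without mutant 2, -0.17 without control 1 and -0.087 without control 2. In these 4 fits 6, 8, 7 and 5 of the 8 were lower. Of 7 tested immediate early and stress genes, which respond to handling, 5 were higher, against 57.2% of all genes. The genotypes overlapped for all 7, where they did not overlap for 24.8% of all genes. The summed level of the 7 was 164 and 110 FPKM in the mutants and 133 and 122 FPKM in the controls, with fosb under 1 FPKM in every library. Mutant 1 stood apart for junba, at 21.1 and 3.12 FPKM in the mutants and 8.36 and 5.53 FPKM in the controls. It was also the highest library for atf3 (6.91 and 1.49 FPKM in the mutants, 1.71 and 2.35 in the controls) and junbb (26.0 and 9.69 FPKM in the mutants, 16.5 and 12.2 in the controls). The part of handling in the heat-inducible members' values was not tested.

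**Figure D3:**
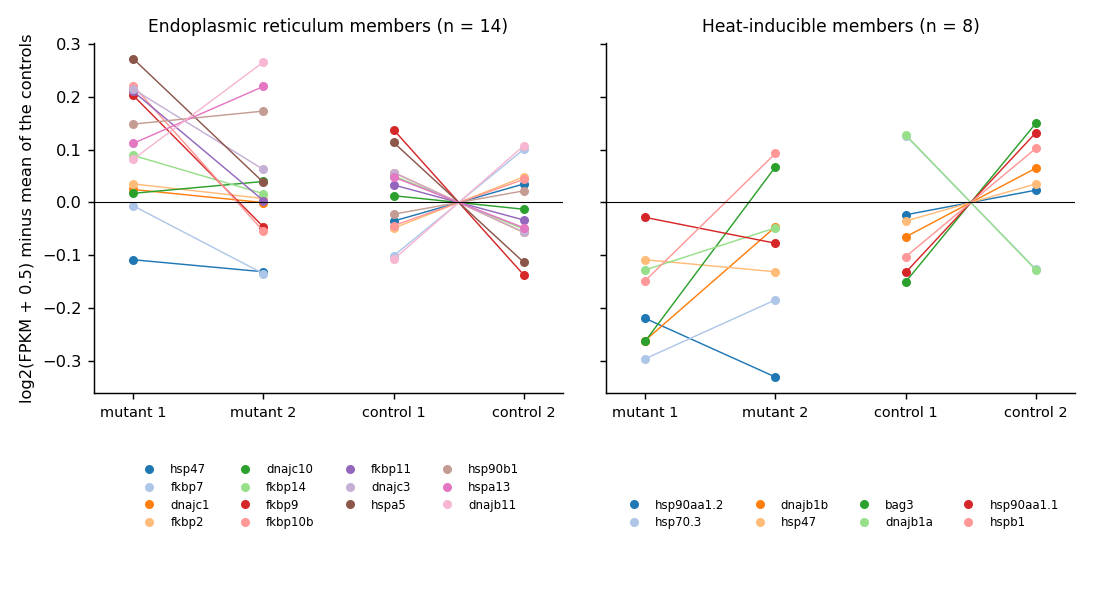
log2(FPKM + 0.5) of the 14 ER members (left) and the 8 heat-inducible members (right) in each library, minus the mean of the controls for that gene; lines join the libraries of a genotype, and the 2 control values of a gene are mirror images by construction. Most ER members lie above 0 in mutant 1, and in mutant 2 dnajb11, hspa13 and hsp90b1 lie highest while most others are near 0, whereas the heat-inducible members lie below 0 in mutant 1, with bag3 and hspb1 above 0 in mutant 2.

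A list of other genes of protein folding held 68 symbols, of which 56 were found and 52 tested. None of the 52 passed over all genes, and 0 had a limma p under 0.05 before adjustment in either direction. Among 24 tested genes of ER folding and the unfolded protein response, 19 were higher (median 0.052), and for 7 both mutants lay above both controls, with 0 below. Over all genes 57.2% were higher with a median of 0.017, and 15.6% had both mutants above and 9.14% both below. The calreticulin-like gene calrl, a calcium-binding chaperone, had 154 and 178 FPKM in the mutants and 145 and 147 FPKM in the controls (0.17, SE 0.0920). The disulfide isomerase gene pdia5 had 10.1 and 9.17 FPKM in the mutants and 8.94 and 7.80 FPKM in the controls (0.19, SE 0.107). ern1, which encodes the ER stress sensor Ire1, was at 0.19 and the ER stress-induced creld2 at 0.12. Of the unfolded protein response factors, xbp1 was at 0.04, atf6 at 0.02, atf4b1 at -0.09 and ddit3 at -0.07. After median-ratio rescaling 16 of the 24 were higher, with a median of 0.033. Of the other parts of the list, 17 co-chaperones had a median of -0.0047 and 6 mitochondrial quality control genes -0.012. The 5 prefoldin genes, which pass actin and tubulin to CCT, had a median of -0.044, with 4 lower. The mitochondrial HSP90 gene trap1 had 3.78 and 4.05 FPKM in the mutants and 3.299 and 3.39 FPKM in the controls (0.20, SE 0.105).

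Markers of the hatching gland, a secretory tissue of the embryo, were higher in the mutants in 4 of 4 cases, against 57.2% of all genes. ctsl1b, a cathepsin of that gland, had 102 and 100.3 FPKM in the mutants and 89.5 and 87.1 FPKM in the controls (0.19, with a limma p of 0.0277 before adjustment). The hatching enzyme gene he1a had 322 and 248 FPKM in the mutants and 272 and 214 FPKM in the controls (0.23). The factor gene xbp1 is in both this list and that of ER folding. The summed level of the 4 markers was 811 and 706 FPKM in the mutants and 735 and 648 FPKM in the controls. Markers of the yolk syncytial layer were lower in 4 of 4 tested cases, against 42.8% of all genes. Their sums were 6349 and 5303 FPKM in the mutants and 6882 and 6065 FPKM in the controls, with mxtx2 and ttr under 1 FPKM. The notochord and floor plate markers, where hsp47 is used, were higher in 4 of 5 cases, with sums of 57.97 and 60.5 FPKM in the mutants and 57.8 and 59.6 FPKM in the controls. Of the neural markers 3 of 4 were higher, and of the periderm markers 2 of 5. The periderm marker anxa1a, which lies on chromosome 5 like tbx1, had 86.8 and 97.4 FPKM in the mutants and 220 and 236 FPKM in the controls (-1.31), the largest difference among the markers tested, whereas the other 4 lay between -0.03 and 0.14. The part of these tissues in the ER members' values was not tested. The tail tip and a little yolk had been removed from the embryos, and the part of that in the marker levels was not tested.

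As over all genes, library number went with larger differences than genotype did among the chaperone genes. Values of the libraries numbered 1 and 2 did not overlap for 46 of the 81 genes (56.8%), against 52.6% of all genes tested. Of the 46, 29 were higher in those numbered 2 and 17 lower. Over all genes, 3213 of the 7070 that did not overlap were higher in those numbered 2 and 3857 lower. The median size of the difference was 0.088 between library numbers and 0.055 between genotypes on the log2 scale, against 0.111 and 0.066 over all genes. bag1, hsf2, bag3 and hspb1 were higher in both libraries numbered 2, and fkbp9 and hspa5 were lower. No label says what the number stands for.

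**Figure D4:**
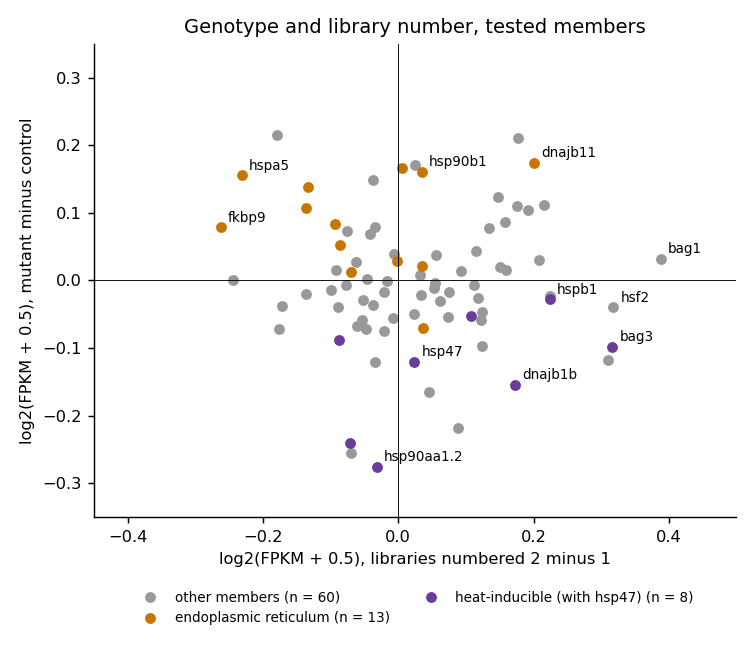
Difference between genotypes (vertical) against the difference between library numbers (horizontal) for the 81 tested chaperone genes, both in log2(FPKM + 0.5); ER members are orange, heat-inducible members purple (hsp47, which is in both groups, is drawn as purple), and all others grey. hsp90aa1.2 lies lowest with a number difference near 0, whereas bag1, hsf2 and bag3 lie far to the right with small genotype differences.

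The gene tbx1 lies on chromosome 5, and so do 9 of the chaperone genes, of which hspb1, hspa5 and hspb8 were tested. hspb8 (17593473 to 17614308 in Zv9) is the nearest, with its middle 691 kb from that of tbx1, and its difference was 0.04 (SE 0.0948). hspb1 and hspa5 lie near the start of the chromosome, 13320 and 14396 kb from tbx1. Among the tested markers anxa1a, xbp1, apoa1a and sox19a also lie on chromosome 5, as do sdf2l1, stip1 and vcp of the folding list. A sequence difference linked to the mutation and an effect of the mutation cannot be told apart for genes on this chromosome.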

How the data were processed

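Per the labels' protocols, polyadenylated RNA of 4 libraries was made into TruSeq libraries and sequenced in paired ends. Cuffdiff 2.0.2, Cufflinks 2.1.1, TopHat2 2.0.8 and the build Zv9 (danRer7) are named in the submitters' processing notes. What each tool did, the annotation and the handling of shared reads are not given in the sources used here. FPKM values per gene were deposited by the authors, titled RPKM per the file headers, with 95% bounds and a status. Of 32538 genes, 138 with a status other than OK were left out, and the rest needed a mean of at least 1 FPKM. Values were used as log2(FPKM + 0.5), which understates the differences of low genes. limma 3.58.1 in R 4.3.3 fitted genotype over all 13448 genes (mean-variance trend, two-sided, Benjamini-Hochberg, threshold 0.05), with 4.66 degrees of freedom in all and a prior of 2.66. The fit was tested on simulated data. No model for counts was run, because whole reads were not recovered. Figures used matplotlib 3.10.9.

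The members and lists were chosen with earlier results of these data known. Named by rule were 45 member symbols (the 3 most abundant per class, all CCT genes, the 12 of lowest p, and members of known role) and the 5 related genes of lowest p; other names were chosen after their values were seen. Alternatives varied the pseudocount, the minimum, the scaling, the prior, short loci, the replicate number and the libraries. Promoter and protein sequences were not used here.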

Additional observations from a re-analysis of the deposited data

How the results depend on the processing

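With 1 library left out, the count of genes called over all genes ranged from 28 to 39, that of chaperone genes with a limma p under 0.05 before adjustment from 0 to 1, the median log2 difference of the ER members from 0.012 to 0.10, that of the heat-inducible members from -0.18 to -0.063, and that of the ER folding list from 0.060 to 0.069. Over all genes, 16 were called with robust empirical Bayes and 24 with the replicate block and loci under 300 bp left out. With the replicate number as a block, 5 chaperone genes had a limma p under 0.05 (dnajb11, hsp90b1 and hspa5 higher, dnajb1b and hsp90aa1.2 lower), against 4.54% of all genes, and 5 again without short loci (6.57% of all genes); 0 passed after adjustment. The differences between libraries numbered 2 and 1 correlated at 0.446 between mutants and controls over the 81 chaperone genes and at 0.347 over loci of at least 300 bp, and at -0.0051 over all genes. With only 2 pairs and no label for what a number shares, the numbers were not taken as pairs. Without trend 2 chaperone genes had a p under 0.05, fkbp1b and hsp90aa1.2, against 2.80% of all genes. After median-ratio rescaling the median of the chaperone genes was -0.026, with 31 higher and 50 lower, and that of the ER folding list 0.033, while the median of all genes moved from 0.017 to -0.0017. Leaving out a library turned the sign of 22 of the 44 tested members named by rule; the other settings turned that of 5 (cct3, cct4, dnaja2, hsp90ab1, tcp1). For single members, 5 alternative differences moved by more than the spread between libraries of a group. They were bag5, cct3 and cct6a under quantile normalization, and cct3 and cct6a under median-ratio rescaling. Leaving out 1 of 2 libraries cannot move a difference beyond that spread. The minimum, the prior, the block and the short loci leave a difference unchanged. The 648 alternative values counted as unchanged therefore do not measure how stable the differences were. With 2 libraries a group, and an estimated 0.722 of the depth of control 1 in mutant 2, genes near 1 FPKM were measured least precisely.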
